A study of Caenorhabditis elegans with 2 samples.

Results

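The 303 intronic peaks described here are those of 2103 reproducible binding sites (14.4%, exact 95% binomial interval 12.9 to 16.0) whose summit lay inside a protein-coding gene but in no exon of any gene. Each summit also lay outside the promoter window, the stretch from 1000 bp upstream to 200 bp downstream of every protein-coding transcript start. The reproducible set, here called the IDR set, was chosen by the authors with the irreproducible discovery rate, which measures how well peaks rank alike between replicates. A peak of this set need not rank alike in both lists deposited for the replicates. For 1 intronic peak the list of replicate 1 held no overlapping peak. Of the other IDR peaks, 1101 had a summit in a promoter window, and 699 lay elsewhere, 524 of them between genes. Chromatin was precipitated from whole L2 larvae of *Caenorhabditis elegans*, of mixed sex, in 2 biological replicates that form 1 group. The strain, OP355, carries the allele tm4063 of unc-119 and the integrated transgene wgIs355, which encodes an eGFP-tagged factor. The labels give the factor as mdl-1 in the source and antibody fields and as ZK337.2 in the description. The annotated transcript of mdl-1 is R03E9.1.1, so these names do not match. The labels alone do not settle which factor was tagged. The series has no other genotype, stage or treatment, and its control library was not used here.

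MDL-1 is a Mad-like basic helix-loop-helix leucine zipper protein. Proteins of this family pair with Max-like partners, bind the E-box CACGTG and are known as repressors that oppose Myc. Introns of worm genes are mostly very short, and the long ones are known to hold enhancers, starts of shorter transcripts and genes for small RNAs.

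The bases from 50 bp left to 50 bp right of the summit show examples of strong intronic sites. Sequences are from the RefSeq WBcel235 (ce11) genome, plus strand, and capitals mark 3 motifs, each searched on both strands. The first motif is the E-box, CACGTG, which reads alike on both strands. Another is the repeat GAGAGA, which reads as TCTCTC on the opposite strand. The last is the octamer CTGCGTCT, which reads as AGACGCAG on the opposite strand. The first set holds 4 high-signal intronic peaks with an E-box, in abts-4 (chrX:6750268-6750368), Y43F8B.2 (chrV:19529333-19529433), F09A5.3 (chrX:13145298-13145398) and daf-14 (chrIV:10252446-10252546).
abts-4 rank 9: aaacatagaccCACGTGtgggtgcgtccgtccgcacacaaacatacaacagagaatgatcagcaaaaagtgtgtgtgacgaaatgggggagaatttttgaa
Y43F8B.2 rank 12: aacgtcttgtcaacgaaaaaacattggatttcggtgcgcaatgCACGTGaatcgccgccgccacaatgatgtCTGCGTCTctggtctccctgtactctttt
F09A5.3 rank 21: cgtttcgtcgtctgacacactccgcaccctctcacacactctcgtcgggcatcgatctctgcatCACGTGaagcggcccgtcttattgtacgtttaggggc
daf-14 rank 38: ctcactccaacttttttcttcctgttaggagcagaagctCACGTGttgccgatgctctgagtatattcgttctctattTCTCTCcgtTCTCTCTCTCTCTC

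The second set has no E-box and shows the other motifs, with GAGAGA in mdl-1 (chrX:6742991-6743091) and nhr-19 (chrII:9603571-9603671) and CTGCGTCT in Y111B2A.12 (chrIII:12612635-12612735) and aak-2 (chrX:16796968-16797068).
mdl-1 rank 7: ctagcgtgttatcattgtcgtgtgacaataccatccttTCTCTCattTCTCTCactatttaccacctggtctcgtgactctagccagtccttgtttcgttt
nhr-19 rank 10: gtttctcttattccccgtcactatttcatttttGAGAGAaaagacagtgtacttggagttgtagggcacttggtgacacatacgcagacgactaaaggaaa
Y111B2A.12 rank 40: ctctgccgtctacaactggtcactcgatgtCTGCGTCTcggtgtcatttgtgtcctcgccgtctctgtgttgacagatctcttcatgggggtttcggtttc
aak-2 rank 52: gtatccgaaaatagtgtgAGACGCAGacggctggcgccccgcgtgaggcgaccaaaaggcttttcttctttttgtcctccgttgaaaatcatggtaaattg

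The last set has none of the 3 motifs although its peaks are strong, in abts-4 (chrX:6749358-6749458) and pqn-41 (chrIII:1925272-1925372).
abts-4 rank 23: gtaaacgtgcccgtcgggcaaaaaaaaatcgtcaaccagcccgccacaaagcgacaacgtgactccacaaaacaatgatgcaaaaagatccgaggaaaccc
pqn-41 rank 61: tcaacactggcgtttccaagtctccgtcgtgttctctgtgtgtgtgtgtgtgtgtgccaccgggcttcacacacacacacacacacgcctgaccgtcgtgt

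The peaks were compared through the authors' signal value, whose scale is not stated, so values are set side by side only within a list. Intronic peaks had IDR signals from 32.5 to 601 with a median of 51.3. Promoter-window peaks had a median of 52.4 and peaks elsewhere a median of 50.6. The class medians thus lay close together, and intronic peaks took 19 of the 100 highest IDR ranks, 73 of the first 500 and 145 of the first 1000. No test between classes was made, because the series has 1 group of 2 samples and peaks are not replicates. Read depth is unknown, and all intervals cover counting error over peaks only. Chromatin of whole animals does not separate binding in few cells from weak binding in many.

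The highest intronic signal lay in the gene named by the source and antibody labels as the tagged one. The mdl-1 peak (X, 6742824 to 6743209) had a signal of 236 in replicate 1 and 372 in replicate 2, and 601 in the IDR list, where it ranked 7. Its summit was 690 bp from the transcript start, in intron 2 of 2, which is 289 bp long. Next came abts-4, which encodes an anion exchange protein and lies near mdl-1. Its 3 peaks shared intron 17 of 19, and the strongest (X, 6750113 to 6750524) had a signal of 173 in replicate 1, 356 in replicate 2 and 529 in the IDR list. The peak of rank 23 had 122 and 254 in replicates 1 and 2, and the peak of rank 359 had 2.79 and 99.2. The last of these was thus strong in replicate 2 and near the bottom of the replicate 1 list, at rank 25332 there, and its summit lay 205 bp from that of rank 23. These 4 are the intronic peaks within 20 kb of mdl-1. An integrated transgene adds copies of the tagged gene and its surroundings, and its part in these signals was not tested. Without these 4 peaks, 299 intronic peaks remained, and the share with an E-box was 19.4%.

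Away from mdl-1 the strongest intronic peaks lay in genes of several kinds. In nhr-19, which encodes a nuclear hormone receptor, a peak in intron 2 (II, 9603437 to 9603806) had signals of 180 in replicate 1 and 343 in replicate 2, and 522 in the IDR list. Y43F8B.2, with a GSKIP domain, had 152 in replicate 1 and 317 in replicate 2 at its strongest peak (V, 19529228 to 19529565). Both peaks were among the first 20 of each replicate list, at ranks 9 and 17 in replicate 1 and 11 and 12 in replicate 2. F09A5.3, which encodes an uncharacterized protein, had 144 in replicate 1 and 249 in replicate 2 at its strongest peak (X, 13145161 to 13145558). In ppfr-1, a regulatory subunit of protein phosphatase 4, the strongest of 5 peaks (I, 9381153 to 9381944) had 127 in replicate 1 and 284 in replicate 2. Its summit had both CACGTG and GAGAGA within 50 bp, and its bases are not shown.

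The remaining 5 of the 12 strongest peaks lay in daf-5, daf-14, Y111B2A.12, zfp-1 and aak-2. In daf-5, a Ski-family protein that acts with the TGF-beta pathway in dauer formation, the strongest peak (II, 14040235 to 14040711) had 83.1 in replicate 1 and 224 in replicate 2. Its ranks were 89 and 27, so replicate 2 placed it higher. daf-14, a Smad of the same pathway, held 1 peak (IV, 10252326 to 10252695) with 94.7 in replicate 1 and 213 in replicate 2. Y111B2A.12, which encodes a protein with WD repeats, had 125 in replicate 1 and 179 in replicate 2, and zfp-1, a zinc finger protein, had 110 in replicate 1 and 169 in replicate 2. In aak-2, a catalytic subunit of the AMP-activated kinase, the peak (X, 16796862 to 16797197) had 64.1 in replicate 1, rank 143, and 209 in replicate 2, rank 35. These 12 highest peaks all overlapped a top peak of both replicates. That was largely fixed by their high IDR signal, which was near the sum of the replicate signals.

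**Figure D1:**
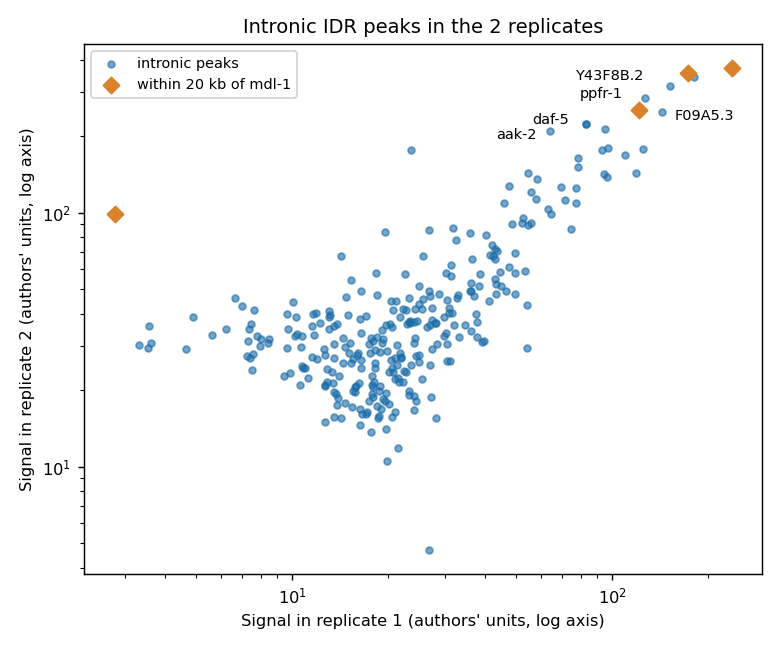
Signal of the intronic IDR peaks in replicate 1 (x axis) and replicate 2 (y axis), both on log axes in the authors' units, each point being 1 peak and diamonds the 4 peaks within 20 kb of mdl-1 (1 peak with no overlapping replicate 1 peak is not drawn). The strongest peaks are high in both replicates, and the diamond at the left is the abts-4 peak with 2.79 in replicate 1 and 99.2 in replicate 2.

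Presence in the replicates was read from each replicate's own 2103 highest-signal peaks. Of the intronic IDR peaks, 249 (82.2%) overlapped a top peak of replicate 1 by at least 1 bp, and 258 (85.1%) overlapped one of replicate 2. Both lists held 206 (68.0%, 62.4 to 73.2), against 68.9% over all IDR peaks. Presence followed rank within the intronic set: 100 of the 100 strongest intronic peaks overlapped a top peak of both replicates, against 21 of the 100 weakest. The IDR signal was near the sum of the replicate signals (median ratio 1.00 over 298 intronic peaks with their own match). A strong IDR peak was thus bound to rank high in the replicates, and this contrast was largely fixed in advance. Overlap can be with a neighbour's peak: in 7 of the 206 the replicate peak with the nearest summit was not itself in the top list, among them the abts-4 peak of rank 359, pkg-2 of rank 1169 and H18N23.2 of rank 1358. Counting only that nearest peak gave 199 (65.7%, 60.0 to 71.0), with 99 of the 100 strongest and 21 of the 100 weakest. Only 2 intronic peaks were in neither top list, in Y39E4B.6 and hmp-1, which were named after their values were seen and had IDR signals of 35.9 and 32.6. In 3 of 4 intronic peaks the summit lay within 38.8 bp of that of the matched replicate 1 peak and within 33.0 bp of that of replicate 2. Where peaks lay close together the match was not unique, and 2 intronic peaks shared a replicate 1 peak and 4 shared a replicate 2 peak. The daf-5 peaks of ranks 36 and 730, 205 bp apart, were such a pair in both lists. Selected by the same rule, the top list of replicate 1 held 328 intronic peaks and that of replicate 2 held 308, or 15.1% ± 0.672 of the list (SD, n = 2). They named 225 and 217 host genes, of which 156 were common, 69.3% of the first and 71.9% of the second.

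Motifs at intronic summits were close in frequency to those at other summits. The E-box CACGTG lay within 50 bp of the summit at 59 intronic peaks (19.5%, 15.2 to 24.4), against 17.2% over all IDR peaks. The share was 15.9% (13.8 to 18.2) in promoter windows and 18.2% (15.4 to 21.2) elsewhere, and the intervals overlap. Windows 500 bp to either side of the intronic summits held it in 2.48%. In the replicate lists the intronic share was 17.4% in replicate 1 and 19.5% in replicate 2, against 13.7% and 14.4% in promoter windows. The intronic share exceeded the promoter-window share in both, by 3.64 and 5.05 percentage points. The E-box centre lay a median of 23.5 bp from the intronic summit, and in 26 of 59 peaks it lay within 20 bp.

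The repeat GAGAGA was the most frequent of the 3 motifs at intronic summits. It lay at 109 intronic peaks (36.0%, 30.6 to 41.7), against 32.2% over all IDR peaks, 29.8% in promoter windows and 34.3% elsewhere. Replicate 1 gave 30.8% and replicate 2 gave 37.3% for intronic peaks, and 29.3% and 29.0% for promoter windows. The difference from peaks elsewhere changed direction between replicates, at -1.51 and 2.83 percentage points. The octamer CTGCGTCT lay at 37 intronic peaks (12.2%, 8.75 to 16.4), against 12.2% over all IDR peaks, and at 0.330% of the windows 500 bp away. Both motifs CACGTG and GAGAGA were present at 19 intronic peaks, CTGCGTCT and GAGAGA at 12, and CACGTG and CTGCGTCT at 3. None of the 3 was found at 132 intronic peaks (43.6%), against 52.1% of promoter-window peaks and 48.5% elsewhere. Median IDR signal was 62.7 for intronic peaks with GAGAGA and 47.2 without it, 55.2 with CACGTG and 50.9 without it, and 70.8 with CTGCGTCT and 50.9 without it.

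**Figure D2:**
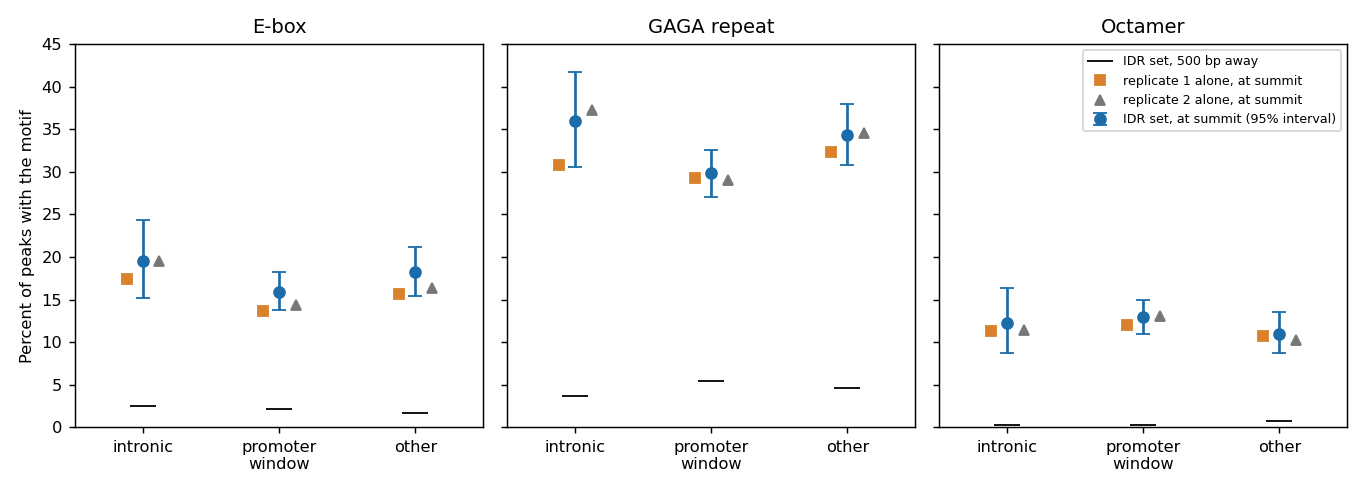
Percent of peaks with the E-box, the GAGA repeat or the octamer within 50 bp of the summit (y axis), for intronic, promoter-window and other peaks, with circles for the IDR set and its exact 95% binomial interval, squares and triangles for the replicate lists, and dashes for windows 500 bp away. At intronic summits the shares are 19.5%, 36.0% and 12.2%, all far above the dashes.

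The surroundings of intronic summits were wider in base composition. The G and C share within 50 bp of the summit was 46.5% for intronic peaks, against 48.0% for promoter windows, while windows 500 bp away had 35.5% and 36.5%. At the bin 10 bp to the right of the summit it was 47.6% for intronic peaks and 50.1% for promoter windows. At 150 bp to the right it was instead 40.6% for intronic peaks and 35.6% for promoter windows. The gap was smaller 150 bp to the left, at 39.5% for intronic peaks and 36.7% for promoter windows. E-boxes were spread likewise: the bin centred 70 bp to the left held a CACGTG start in 2.64% of intronic peaks and 1.27% of promoter-window peaks, and the bin 70 bp to the right in 3.96% and 0.817%. These bins rest on 8 and 12 intronic E-boxes. In the bin 50 bp to the left the values were 5.61% for intronic and 1.91% for promoter-window peaks. In the bin 50 bp to the right they were 1.98% and 2.18%, so there the promoter windows had more. Widening the search from 50 to 100 bp on each side brought the intronic share with an E-box to 30.7%. The share within 100 bp was not computed for promoter-window peaks.

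**Figure D3:**
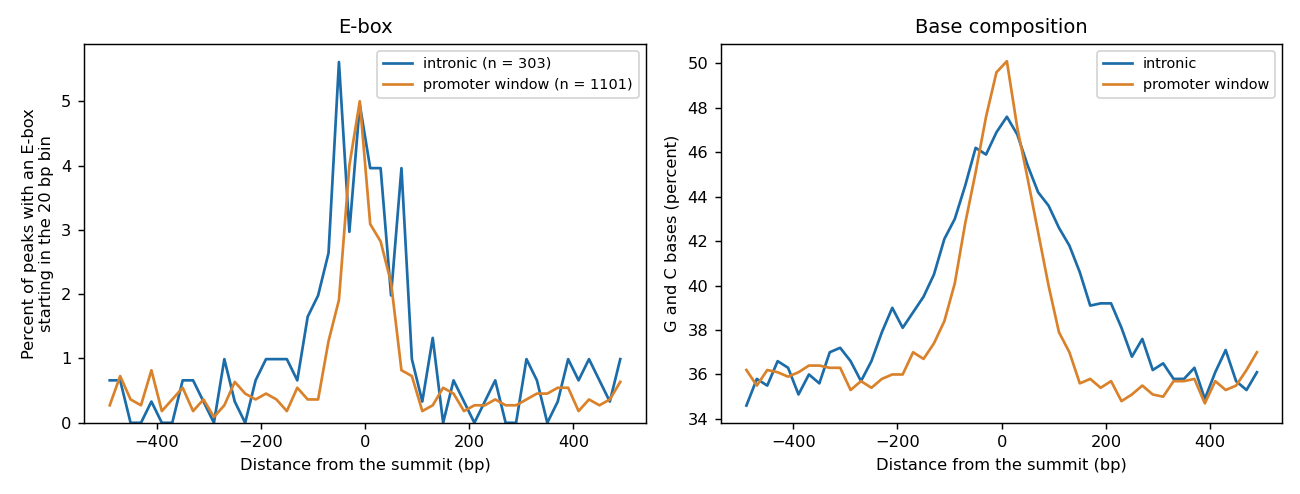
Percent of peaks with a CACGTG start in each 20 bp bin (left) and percent of G and C bases (right) against distance from the summit in bp, for the 303 intronic and the 1101 promoter-window IDR peaks. The G and C curve is wider for intronic peaks. At 150 bp it is at 40.6% for intronic peaks and 35.6% for promoter windows to the right, and 39.5% and 36.7% to the left. The E-box curve is higher for intronic peaks 70 bp to either side, but not 50 bp to the right.

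Most E-boxes in introns carried no peak. The bases that meet the rule, here called searched intron, amounted to 26.7 Mb and held 3523 CACGTG sites, of which 64 (1.82%, 1.40 to 2.31) lay within 50 bp of an intronic IDR summit. In promoter windows 180 of 4868 sites (3.70%, 3.19 to 4.27) and elsewhere 134 of 9338 (1.43%, 1.2 to 1.70) lay at a summit. In the replicate lists 60 intronic sites (1.70%) in replicate 1 and 59 (1.67%) in replicate 2 were at a summit. First introns had 23 of 826 sites at a summit (2.78%, 1.77 to 4.15), and later introns had 41 of 2683 (1.53%, 1.1 to 2.07).

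The base on either side of the E-box went with different shares, on small counts. GCACGTGA, counted with its reverse complement, lay at an intronic summit in 8 of 195 cases (4.10%, 1.79 to 7.92), with 3.59% in replicate 1 and 5.13% in replicate 2. ACACGTGC did so in 8 of 200 (1.74% to 7.73%), with 9 of 200 in replicate 1 and 6 of 200 in replicate 2. The most common form in searched intron, ACACGTGG, did so in 7 of 680 (1.03%, 0.415 to 2.11), with 0.882% and 0.588% in replicates 1 and 2, and CCACGTGG in 5 of 475 (1.05%). GCACGTGC lay at a summit in 2 of 80 intronic cases (2.5%, 0.304 to 8.74), against 15 of 111 in promoter windows (13.5%, 7.77 to 21.3).

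Intronic peaks were concentrated in long introns. Over all searched intron there were 11.4 peaks per Mb (exact 95% Poisson interval 10.1 to 12.7), against 42.0 in promoter windows and 22.9 between genes. Introns shorter than 500 bp had 4.10 per Mb (2.81 to 5.79) and those of 500 to 999 bp had 4.11. Density was 7.43 at 1000 to 1999 bp, 35.9 at 5000 to 9999 bp and 40.1 (29.6 to 53.2) from 10000 bp. Between these, introns of 2000 to 4999 bp had 21.0 per Mb in replicate 1 and 20.7 in replicate 2. The longest introns thus had a density near that of promoter windows. In replicate 1 the shortest and longest classes had 4.87 and 41.8 per Mb, and in replicate 2 they had 3.85 and 39.3. The host intron had a median length of 4080 bp, or 4068 ± 206 over the replicate lists (SD, n = 2), against 266 bp for all introns of the host transcripts and 80.0 bp for introns with searched bases. In 223 peaks (73.6%, 68.3 to 78.5) it was the longest intron of its transcript. The share of searched intron that lies in such longest introns was not computed.

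Median IDR signal by length class ran from 46.6 to 61.9, the lowest at 500 to 999 bp and the highest from 10000 bp. The longest host intron, 100912 bp, belonged to nhr-27, a nuclear hormone receptor gene. Its peak (X, 12759664 to 12760039) had 42.3 in replicate 1 and 67.5 in replicate 2 and lay 48364 bp from the nearest exon. The shortest host intron, 43 bp, was in F01F1.3, which encodes a protein with an MIF4G domain. That peak (III, 5874216 to 5874591) had 21.9 in replicate 1 and 27.1 in replicate 2, and with its summit 4 bp from an exon the peak was wider than the intron.

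First introns had more peaks per base than later ones. They held 104 peaks (34.3%) on 21.0% of searched intron, or 18.6 per Mb (15.2 to 22.5), against 9.47 (8.20 to 10.9) in later introns. The ratio was 1.96, and it was 2.08 in replicate 1 and 2.00 in replicate 2. By order, density was 13.0 per Mb in intron 2, 8.19 in intron 3, 13.1 in intron 4, 7.49 in introns 5 to 9 and 7.22 from intron 10 on. Within length classes the intervals of first and later introns overlapped. The density was lower in first introns below 500 bp (1.07 in first and 4.52 in later introns) and at 500 to 999 bp (3.65 and 4.21). It was higher in first introns at 1000 to 1999 bp, with 11.2 in first and 6.63 in later introns. The densities were 25.7 in first and 17.6 in later introns at 2000 to 4999 bp, 40.8 and 32.3 at 5000 to 9999 bp, and 36.9 and 43.1 from 10000 bp. First introns thus had the higher value in 3 of 6 length classes. The share in first introns depends on the transcript: taking the lowest order over all host transcripts, it was 49.8%. An E-box lay at 21 of 104 peaks in first introns (20.2%, 13.0 to 29.2) and at 38 of 199 in later introns (19.1%, 13.9 to 25.3).

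**Figure D4:**
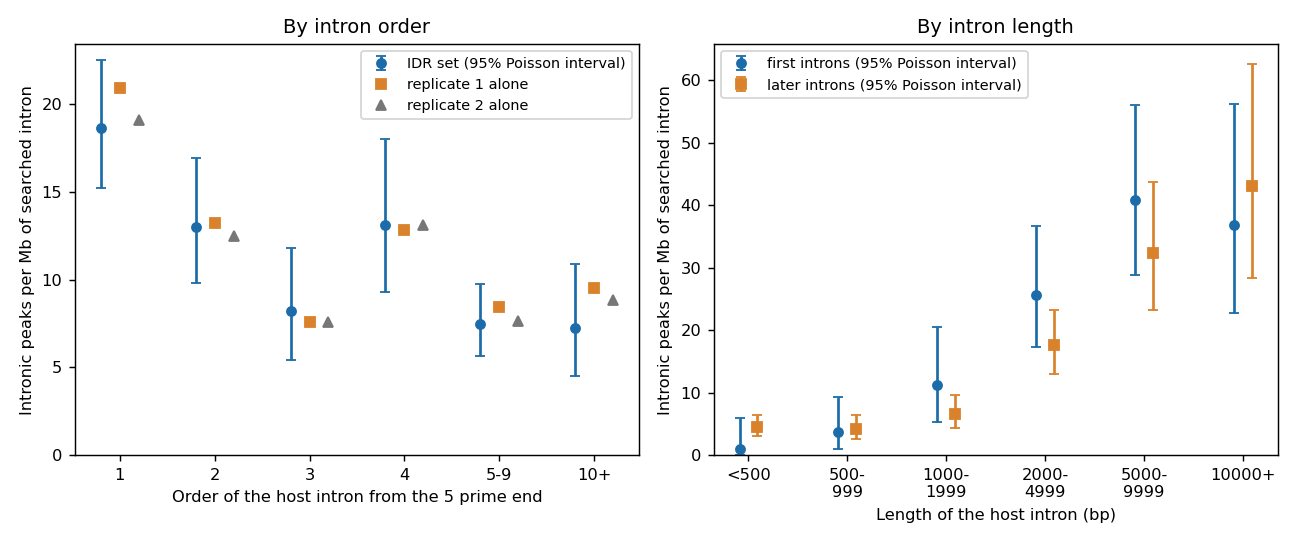
Intronic peaks per Mb of searched intron by order of the host intron (left; circles, IDR set with exact 95% Poisson interval; squares and triangles, replicates 1 and 2 alone) and by its length in bp (right; circles, first introns; squares, later introns). Density is 18.6 in first introns, and by length it is highest from 5000 bp up, with the intervals of first and later introns overlapping within each length class.

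Summits lay away from exons. Within 100 bp of an exon there were 2.18 peaks per Mb, from there to 500 bp 7.30, from there to 1000 bp 15.0, from there to 2000 bp 36.8 and beyond 2000 bp 41.1. Cut into 3 equal parts, introns had 10.8 per Mb in the 5' part, 14.3 in the middle and 8.90 in the 3' part, with 11.7, 15.3 and 9.75 in replicate 1 and 10.3, 15.2 and 9.03 in replicate 2. The distance to exons and the length of the intron go together, and they were not separated here.

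A further start of the host gene lay downstream of the summit in 180 intronic peaks (59.4%, 53.6 to 65.0). The share of searched intron with any such start downstream was not computed. The start lay within 3000 bp in 97 (32.0%), on 10.8% of searched intron. Density there was 33.7 per Mb (27.3 to 41.1), against 8.66 (7.51 to 9.92) in the rest, and it was 35.7 against 9.45 in replicate 1 and 35.4 against 8.66 in replicate 2. Examples are daf-14, with its summit 1170 bp before an internal start, aak-2 with 2689 bp and daf-5 with 2708 bp. The promoter window of each such start was left out by the rule. Density over all searched intron also rose with intron length, from 4.10 per Mb below 500 bp to 35.9 at 5000 to 9999 bp and 40.1 from 10000 bp. Bases before an internal start and the rest were not matched for intron length. A link of peaks to internal starts apart from intron length was thus not tested.

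The 303 peaks fell in 222 host genes, 1.28% of the 17296 protein-coding genes with searched intron. Of the hosts, 177 had 1 peak, 27 had 2, 7 had 3 and 11 had 4 or more. The 45 hosts with 2 or more held 126 peaks (41.6%, 36.0 to 47.4), and 36 of the 244 host introns had 2 or more, up to 6 in 1 intron. Another IDR summit of any class lay within 1000 bp of 47 intronic summits (15.5%, 11.6 to 20.1) and within 5000 bp of 176 (58.1%, 52.3 to 63.7). The same shares over all IDR peaks were not computed, so these values do not set intronic peaks apart from other IDR peaks. Hosts were long: their searched intron had a median of 5192 bp, against 679 bp over all genes with searched intron. The share of genes that were hosts was 0.159% with under 1000 bp of searched intron, 1.08% at 1000 to 1999 bp, 2.40% at 2000 to 4999 bp, 7.61% at 5000 to 9999 bp and 15.4% (11.7 to 19.8) from 10000 bp.

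Some hosts also had peaks at their own promoters. An IDR summit lay in the host's own promoter window in 65 of 222 hosts (29.3%, 23.4 to 35.7), against 6.39% of all genes with searched intron. The own window is that of any protein-coding transcript start of the gene, internal starts included. Genes with more starts thus have more windows, and hosts were not matched to other genes for the number of starts. The replicate lists gave 25.3% in replicate 1 and 27.6% in replicate 2. Within classes of searched length the share was 35.3% of hosts and 5.75% of all genes below 1000 bp, 20.7% and 7.59% at 2000 to 4999 bp, and 29.4% and 9.06% from 10000 bp. The lowest of these classes rests on 17 hosts.

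Genes with 4 or more intronic peaks included regulators of developmental timing, growth and energy use. lin-14, a nuclear protein of the heterochronic pathway and a target of the lin-4 microRNA, had 7 peaks (gene at X, 11465560 to 11485871), 6 of them in intron 3, which is 11174 bp long. The strongest had 32.5 in replicate 1 and 78.3 in replicate 2, and the weakest had 6.24 in replicate 1 and 35.0 in replicate 2. Signals of the 7 ran from 40.3 to 114 in the IDR list, and 5 were in both top lists. Its intronic summits spanned 13029 bp, and 1 had an E-box.

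Kinases, their subunits and phosphatase subunits were among the hosts with many peaks. pkg-2, a cGMP-dependent protein kinase, had 5 peaks in 2 introns with IDR signals from 37.6 to 227, the strongest with 78.4 in replicate 1 and 151 in replicate 2. aakg-1, a gamma subunit of the AMP-activated kinase, had 4 peaks spread over 18674 bp, with signals from 62.3 to 189, and all 4 were in both top lists. The strongest had 77.2 in replicate 1 and 109 in replicate 2. ppfr-1 had 5 peaks with signals from 45.5 to 418, all in both top lists. H18N23.2, a regulatory subunit of protein phosphatase 1, had 5 peaks from 43.7 to 89.7, of which 3 had an E-box, the most among these hosts. Its weakest peak had 26.7 in replicate 1 and 4.70 in replicate 2, where the nearest peak ranked 28390.

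Transcription regulators and others completed the group. hlh-30, the worm member of the TFEB family that controls autophagy and lysosome genes, had 4 peaks with signals from 39.2 to 197, all in both top lists. Its strongest peak (IV, 4025937 to 4026209) had an E-box and 69.4 in replicate 1 and 126 in replicate 2. daf-5 had 5 peaks from 53.6 to 304, none with an E-box and all in both top lists. Its peaks of ranks 36 and 730 shared 1 matched peak in each replicate list, so they do not count separately there. pqn-41, which encodes a polyglutamine-repeat protein, had 4 peaks in 1 intron of 10372 bp with the highest minimum of these hosts, from 116 to 264, none with an E-box. Its strongest had 97.0 in replicate 1 and 180 in replicate 2. ncl-1, a RING-type ubiquitin ligase known for limiting nucleolar size, had 4 peaks from 33.3 to 68.4, and 2 of them were in both top lists. ZK470.2 had 4 peaks of up to 168 and T28B11.1, with an F-box domain, had 4 from 36.7 to 56.9.

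**Figure D5:**
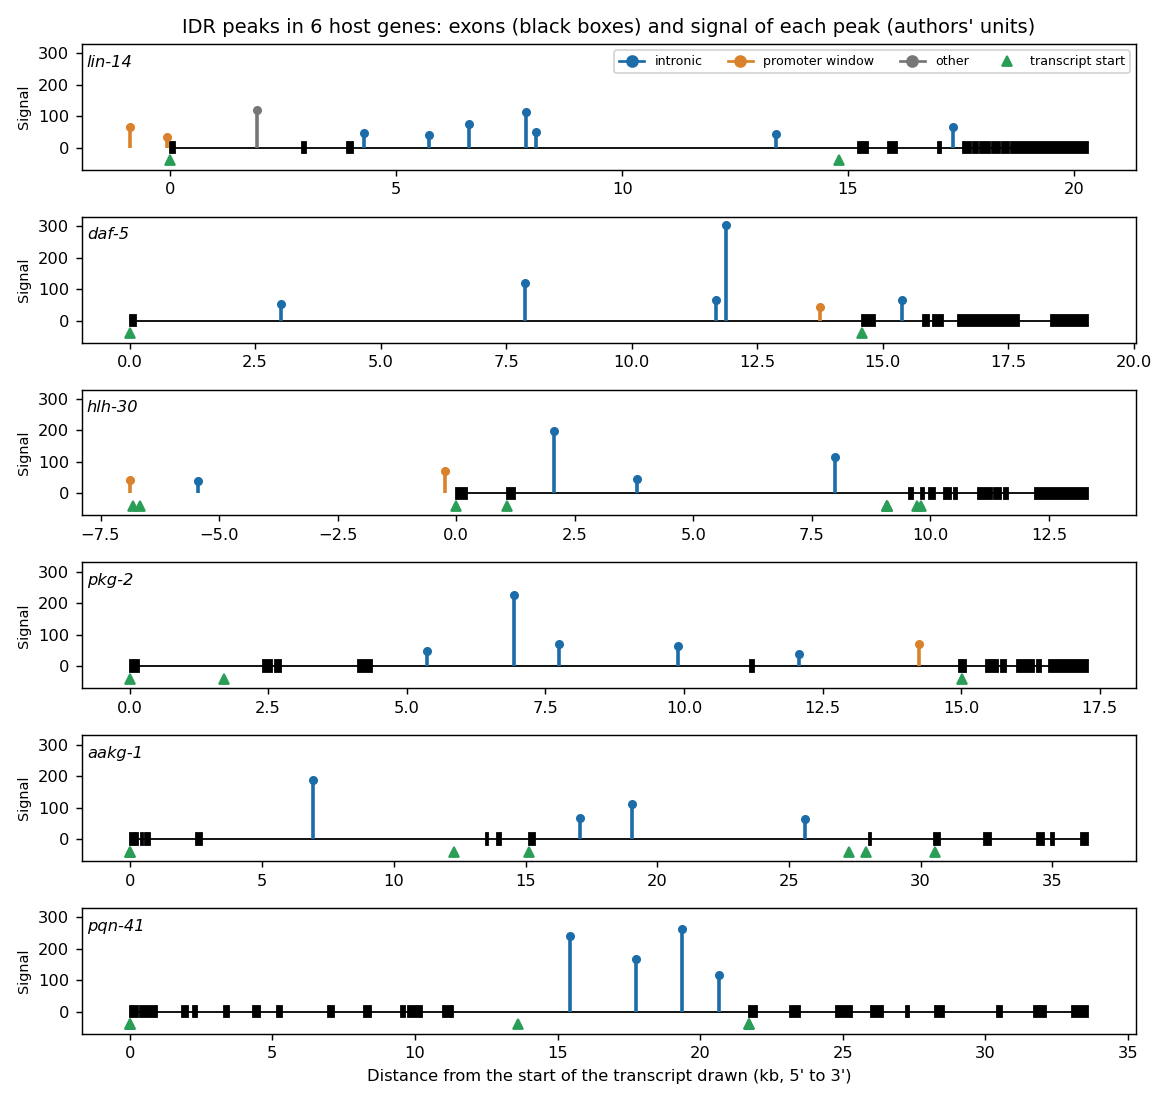
IDR peaks in 6 host genes, with distance from the start of the transcript drawn in kb (x axis), exons as black boxes, transcript starts as triangles and each peak as a stem whose height is its signal in the authors' units; stems are coloured as intronic, promoter-window and other. Most intronic stems stand in long introns, with exceptions in introns of 482 bp in lin-14 and 963 bp in daf-5, and the highest is the daf-5 peak at 304. The hlh-30 intronic stem at -5454 bp stands upstream of the transcript drawn, in an intron of another transcript.

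The 8 lists of genes by role were set beside the host genes. The share of hosts rose with searched intron, to 7.61% of genes with 5000 to 9999 bp, and density rose with intron length. The lists were not matched for length, so their values do not separate role from length. Of 119 other transcription factors with searched intron, 15 were hosts (12.6%, 7.23 to 19.9), at 57.8 peaks per Mb (36.6 to 86.7), against 1.28% of genes and 11.4 per Mb overall. Their strongest hosts were mdl-1, daf-14 and hlh-30. Among nuclear hormone receptors, ligand-regulated factors, 12 of 268 were hosts (4.48%, 2.33 to 7.69), at 41.6 per Mb, led by nhr-19, nhr-3 and nhr-46. nhr-3 had 63.0 in replicate 1 and 103 in replicate 2, and nhr-46 had 43 and 72.3. Of the 69 homeobox factors 1 was a host, ceh-62, with 16.2 in replicate 1 and 21.4 in replicate 2 (5.76 per Mb, 0.146 to 32.1).

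Signalling genes followed the factors. Of 137 kinases, phosphatases and GTPase regulators, 16 were hosts (11.7%, 6.82 to 18.3), at 33.9 per Mb (22.4 to 49.4), led by aak-2, pkg-2 and aakg-1. Lipid and energy metabolism had 4 hosts of 89 (4.49%, 1.24 to 11.1), at 33.0 per Mb. They were led by hxk-1, a hexokinase with 55.7 in replicate 1 and 91.2 in replicate 2, pdhk-2, a pyruvate dehydrogenase kinase with 25.6 and 67.8, and pck-2, a phosphoenolpyruvate carboxykinase with 10.8 and 32.6.

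Lists of neuronal and muscle genes had densities of 13.6 per Mb or less, against 11.4 over all searched intron. That overall value lay within the interval of each of these lists. Over all genes with searched intron, 1.28% were hosts. Axon guidance and cell adhesion had 6 hosts of 94 (6.38%, 2.38 to 13.4), at 13.6 per Mb (5.88 to 26.8), led by abts-4, lon-2 and unc-14. Of its 8 peaks, 3 are those of abts-4, whose product is an anion exchange protein and which lies within 20 kb of mdl-1. Without that gene 5 hosts of 93 and 8.67 peaks per Mb (2.82 to 20.2) remained, while the other transcription factors without mdl-1 had 55.3 per Mb (34.7 to 83.8). lon-2, which encodes a glypican, had 16.4 in replicate 1 and 38.3 in replicate 2, and unc-14 had 9.72 and 34.7. Ion channels had 1 host of 87, glr-2, a glutamate receptor with 19.1 in replicate 1 and 30.8 in replicate 2 (2.12 per Mb, 0.0536 to 11.8). Muscle and cytoskeleton genes had 1 host of 99, unc-119, with 17.7 in replicate 1 and 13.8 in replicate 2 (2.97 per Mb, 0.0751 to 16.5). The strain carries an allele of unc-119, and its part in that peak was not tested. The upper bound for ion channels lay below the lower bound for the other transcription factors, but the lists differ in searched intron, from 0.121 to 0.796 Mb, and no test between lists was made. In replicate 1 the lists had 15 factor, 13 receptor and 14 signalling hosts, and in replicate 2 they had 14, 13 and 15.

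In 7 cases an intronic peak had a summit within 1000 bp of a microRNA gene start, on 0.0870 Mb of searched intron (80.4 per Mb, 32.3 to 166). Over all searched intron the density was 11.4 per Mb. Bases near microRNA starts were not matched to the rest for intron length. A link of peaks to microRNA genes apart from intron length was thus not tested. In F09A5.3 the strongest peak lay 254 bp upstream of mir-54, and a second one lay 242 bp from the start of mir-56 and not upstream of it. That second peak had 35.9 in replicate 1 and 83.3 in replicate 2. In gcn-1 a peak 373 bp upstream of mir-229 had 14.3 in replicate 1 and 67.8 in replicate 2. A peak 286 bp upstream of mir-90 in K01F9.2 had 31.7 in replicate 1 and 40.3 in replicate 2, and one 460 bp upstream of mir-58a in Y67D8A.2 had 25.7 and 45.9. In ppfr-1, 2 peaks lay 280 bp upstream of mir-71 and 398 bp upstream of mir-2, with 30.3 and 19.6 in replicate 1 and 33.6 and 36.1 in replicate 2. All 7 were in both top lists, and 6 of 7 lay upstream. The share of nearby searched bases that lie upstream of a microRNA start was not computed.

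Other small RNA genes were near intronic peaks as well. Within 1000 bp of a start, 12 peaks were near a snoRNA gene (87.7 per Mb, 45.3 to 153), 12 near a tRNA gene (53.9, 27.9 to 94.2) and 4 near an snRNA gene (87.3, 23.8 to 223). The ncRNA class had 64 (25.5, 19.7 to 32.6). Near piRNA genes the density was 4.92 per Mb (1.98 to 10.1) from 7 peaks, and near pseudogenes there were 0 peaks on 0.289 Mb, with an upper bound of 12.8 per Mb. A peak can be near several such genes and was then counted for each class. Density over all searched intron was 11.4 per Mb. Bases near these genes were not matched to the rest for intron length, and these densities were not computed for each replicate. A link of peaks to these genes apart from intron length was thus not tested.

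Density differed between chromosomes. The X chromosome had 75 intronic peaks, 4 of them within 20 kb of mdl-1, at 16.8 per Mb (13.2 to 21.0). Chromosomes II and III had 14.5 and 13.6 per Mb, IV had 10.6, I had 7.09 (4.94 to 9.86) and V had 6.80 (4.65 to 9.60). Replicate 1 gave 19.7 on X and 7.44 on V, and replicate 2 gave 18.6 and 6.59.

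Intronic positions were more frequent below the IDR threshold than in it. In the IDR set the intronic share was 14.6% at ranks 1 to 500 and 14.3% at ranks 1501 to 2103. Further down the authors' pooled list it was 18.2% (16.8 to 19.7) at ranks 2104 to 5000, 25.2% at ranks 5001 to 10000 and 30.1% (29.1 to 31.1) at ranks 20001 to 28651. The promoter-window share was 53.8% in the first of these ranges and 28.2% in the last. Searched intron covered 26.7 Mb and promoter windows 26.2 Mb. In the last range the shares of these classes thus lay near each other, as their sizes do. E-boxes lay at 26.0% (16.5 to 37.6) of intronic summits at ranks 1 to 500, 15.3% at ranks 501 to 1000, 20.8% at ranks 1001 to 1500 and 16.3% at ranks 1501 to 2103, with no steady order within the IDR set. Below it the share was 8.14% at ranks 2104 to 5000, 3.65% at ranks 5001 to 10000 and 1.46% in the last range, below the 2.48% found 500 bp from the intronic IDR summits.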

How the data were processed

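Peak lists in genome build ce11 were analysed for 2 biological replicates of whole L2 larvae, size-selected at 150 to 350 bp per the labels. The authors deposited a relaxed list of 30000 peaks per replicate, one of 28651 on the pooled replicates and the IDR set of 2103. Each deposited peak has a signal value, a score on a scale that is not stated, and a deposited −log10 q-value, which was not used. Lists in ce10 were not used, and depth is unknown. The names of the peak caller and aligner and the IDR threshold were not given in the sources used here.

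Summits were placed on WBcel235 with Ensembl release 115, and gene products came from RefSeq (222 of 222 hosts matched). Intron order and length came from the host transcript with the longest coding sequence. Peaks were matched to the overlapping replicate peak with the nearest summit. Each replicate was also analysed through its own 2103 highest-signal peaks. Shares have exact (Clopper-Pearson) binomial and densities exact Poisson intervals at 95%. The replicates form 1 group, so no p-values were computed.

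Named genes were the hosts of the 12 strongest intronic peaks, of all intronic peaks within 20 kb of mdl-1, of 4 or more peaks, of the longest and shortest host intron and of peaks within 1000 bp of a microRNA start, and up to 3 hosts per gene list by signal. Members, lists and rules were chosen with earlier results of these data known. Alternatives covered the promoter window, exon set, transcript, motif window, overlap rule, list size, the mdl-1 region and each replicate alone. The placing of summits and the motif search were tested on simulated data. Scripts ran under Python 3.11.15 with scipy 1.17.1 for intervals, numpy 2.4.6 and pandas 2.3.3 for tables, and matplotlib 3.10.9 for plots.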

Additional observations from a re-analysis of the deposited data

How the results depend on the processing

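Of 56 values recomputed under alternatives, 26 moved by less than the spread of the replicates (for the number of peaks, by less than 1.5 times) and 30 by more. Among the 1000 highest-signal IDR peaks, 145 were intronic, with a median host intron of 4347 bp, 38.6% in first introns, a first-to-later density ratio of 2.37 and 21.6% of hosts with their own promoter peak. With a window of 2000 bp upstream to 500 bp downstream, the median host intron was 4298 bp, the first-intron share 31.0%, the ratio 2.40, the E-box share 23.6% and the share of hosts with a promoter peak 40.4%. With 500 bp upstream to 100 bp downstream, the same values were 3697 bp, 37.5%, 1.97, 21.1% and 21.5%. With exons of protein-coding genes only, the median was 3651 bp and the share of hosts with a promoter peak 27.5%. The first-intron share was 49.8% with the lowest order over host transcripts. The E-box share was 9.57% within 25 bp and 30.7% within 100 bp. The share in both top lists was 37.3% with lists of 1000, 94.7% with lists of 5000, 63.0% with an overlap of at least 50% of the IDR peak and 62.4% with summits within 100 bp. It was 65.7% when only the replicate peak with the nearest summit counted, an alternative chosen after seeing the data. With each replicate left out in turn, the number ran from 308 to 328, the median host intron from 3922 to 4213 bp, the first-intron share from 34.7% to 35.7%, the ratio from 2.00 to 2.08, the E-box share from 17.4% to 19.5%, the share of hosts with a promoter peak from 25.3% to 27.6% and the share in 1 top list from 82.2% to 85.1%. Without the region of mdl-1 no value moved by more than that spread. The ratio of first to later introns stayed above 1 in every alternative run for it. The lowest order over host transcripts was not among these, and none held intron length fixed. No paired analysis was possible because the series has 1 group. Unknown depth limits all comparisons of signal.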
